A study of Mus musculus with 14 samples.

Results

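The Cyp2c genes encode cytochromes P450, heme enzymes of the endoplasmic reticulum that oxidize drugs, steroids, retinoids and fatty acids. Of the 10 Cyp2c genes considered here, chosen by name, 8 had at least 1 probe on the array whose RefSeq accession belongs to the gene. These were Cyp2c29, Cyp2c37, Cyp2c38, Cyp2c39, Cyp2c50, Cyp2c54, Cyp2c55 and Cyp2c70. Cyp2c40 and Cyp2c69 had no probe by accession and are not analysed here. The 8 genes were read by 12 probes, among 39429 probes and 19751 named genes on the array. Each of the 12 probes was well above background in all 28 channels.

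Liver RNA was compared between male (M) and female (F) CD-1 mice aged 3, 4 or 8 wk, the first 2 ages before puberty and the last in young adulthood. Pups had been raised by surrogate mothers, and no group received a treatment. Each of the 6 sex and age groups was represented by 2 RNA pools, which combined 5 animals each for the 3 wk groups and 6 animals each for the older groups. The pools were hybridized in 7 pairings on 14 dual-colour arrays. Males were set against females of the same age (M3/F3, M4/F4, M8/F8), and 8 wk liver against each younger age within females (F8/F3, F8/F4) and within males (M8/M3, M8/M4), with the dyes exchanged between replicate 1 and replicate 2 of each pairing. The 7 pairings reuse the same pools, so they are not independent of one another. In bulk liver, fewer cells expressing a gene and less RNA per cell cannot be told apart.

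Most Cyp2c enzymes of mouse liver epoxidize or hydroxylate arachidonic acid, which gives lipid mediators, and the cytochromes receive their electrons from cytochrome P450 reductase. In rodents, many hepatic cytochromes acquire a sex bias around puberty, when the pituitary pattern of growth hormone secretion becomes sex-dependent. Growth hormone acts in hepatocytes through the transcription factor STAT5b, and liver-enriched factors such as HNF4α are also needed for Cyp2c expression.

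The genes lie side by side on mouse chromosome 19, and their close resemblance bears on what a probe measures. In the order of the GRCm38.p6 annotation, Cyp2c55 comes first of the 8 measured genes, followed by Cyp2c29, Cyp2c39, Cyp2c38, Cyp2c37, Cyp2c54, Cyp2c50 and Cyp2c70. Cyp2c39 has annotated starts on both sides of that of Cyp2c38, and its place before Cyp2c38 rests on the first of them. Sequences were at hand for 10 of the 12 probes, each of 60 bases, and for 1 probe each of the neighbours Cyp2c67 and Cyp2c68. Of 61 pairs of probes for different genes, 3 matched at 25 or more of 30 bases in their best ungapped 30-base window, against a median of 15. One of these was the pair for Cyp2c67 and Cyp2c68, which matched at 29 of 30 bases. The other 2 pairs involve Cyp2c37 and are printed below, 5′ to 3′, with the bases that differ in capitals.
Cyp2c37, probe A_51_P498882: cacactggacaCactgACttttatccaGtt
Cyp2c50, probe A_55_P2020477: cacactggacaTactgCTttttatccaTtt
Cyp2c29, probe A_51_P103706: tggGcactttctaAatgCgaatggaaaCtt
Cyp2c37, probe A_55_P1964483: tggCcactttctaGatgGgaatggaaaGtt

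Each of these 2 pairs matched at 26 of 30 bases. Cross-hybridization of the RNAs of these genes was not tested. Both probes for Cyp2c38 read different stretches of sequence, with 17 of 30 bases alike in their best window, and are shown because they gave unequal ratios.
Cyp2c38, probe A_52_P468564: tgCTttaCttAGtctgTcaAcTAaACaTAa
Cyp2c38, probe A_55_P2116272: tgGAttaAttGCtctgCcaCcCCaTTaCCa

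The 3 Cyp2c54 probes included 2, A_52_P154580 and A_55_P2158547, that share a run of 42 identical bases. Each gene is described first by its lead probe, the one with the highest mean signal, and the other probes are given beside it where they were called or differed in size. Signals of different probes are not compared with each other.

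At 8 wk, 6 of the 8 genes were lower in male than in female liver and 0 were higher. A gene was called at a Benjamini-Hochberg adjusted p from limma under 0.05 and a change of over 1.5-fold. Of all probes well above background in M8 or F8, 3.49% were called lower and 2.81% higher in males. The 6 genes were Cyp2c37, Cyp2c39, Cyp2c54, Cyp2c50, Cyp2c29 and Cyp2c38, and their female over male ratios ran from 8.09-fold for Cyp2c37 to 1.78-fold for Cyp2c38. The median log2 ratio over the 8 genes was -1.06, beside 0.01 over all probes tested. By single probes, 10 of 12 were called lower in males. The 2 genes without a call, Cyp2c55 and Cyp2c70, are the first and last of the measured genes along the chromosome. The 5 markers of Kupffer cells, the macrophages of the liver, were lower in 8 wk males too (median log2 ratio -0.59), and their part in the Cyp2c ratios was not tested.

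Cyp2c37, which hydroxylates arachidonic acid, had the largest sex ratio of the lead probes. The M8/F8 log2 ratio of probe A_51_P498882 was -2.94 on replicate 1 and -3.09 on replicate 2. The mean was -3.02 (SE 0.16, limma adjusted p = 0.000164). The second probe, A_55_P1964483, gave log2 ratios of -1.67 and -1.58, a 3.08-fold female excess (limma adjusted p = 0.000178). Both probes and both arrays had the same direction, but the size differed by 1.39 on the log2 scale between the probes.

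Cyp2c39, an enzyme that also hydroxylates retinoic acid, followed with M8/F8 log2 ratios of -2.28 and -2.43 on the 2 arrays. Its female excess was 5.11-fold (log2 ratio -2.35, SE 0.10, limma adjusted p = 0.000113). Cyp2c54 and Cyp2c50, both epoxygenases of linoleic and arachidonic acid, were below 0 on both arrays as well. For Cyp2c54 the log2 ratios were -1.84 and -1.56, a 3.25-fold difference (limma adjusted p = 0.00123), and its other probes gave -1.45 and -1.10, both called. The Cyp2c50 log2 ratios were -1.06 and -1.29, a 2.26-fold difference (limma adjusted p = 0.00171).

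Cyp2c29, an abundant epoxygenase of arachidonic acid whose probe was spotted 10 times, had log2 ratios of -0.95 and -0.92. Its female excess was 1.91-fold (SE 0.09 on the log2 scale, limma adjusted p = 0.00124). Cyp2c38, also an arachidonic acid epoxygenase, gave 2 very different sizes. On its lead probe, A_55_P2116272, the log2 ratios were -0.99 and -0.68 (1.78-fold, limma adjusted p = 0.00346). On probe A_52_P468564 they were -3.31 and -3.15 (9.37-fold, limma adjusted p = 5.37e-05). The 2 probes thus differed by 2.39 on the log2 scale in M8/F8, and the probe with the larger ratio had the largest sex difference of all 12.

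**Figure D1:**
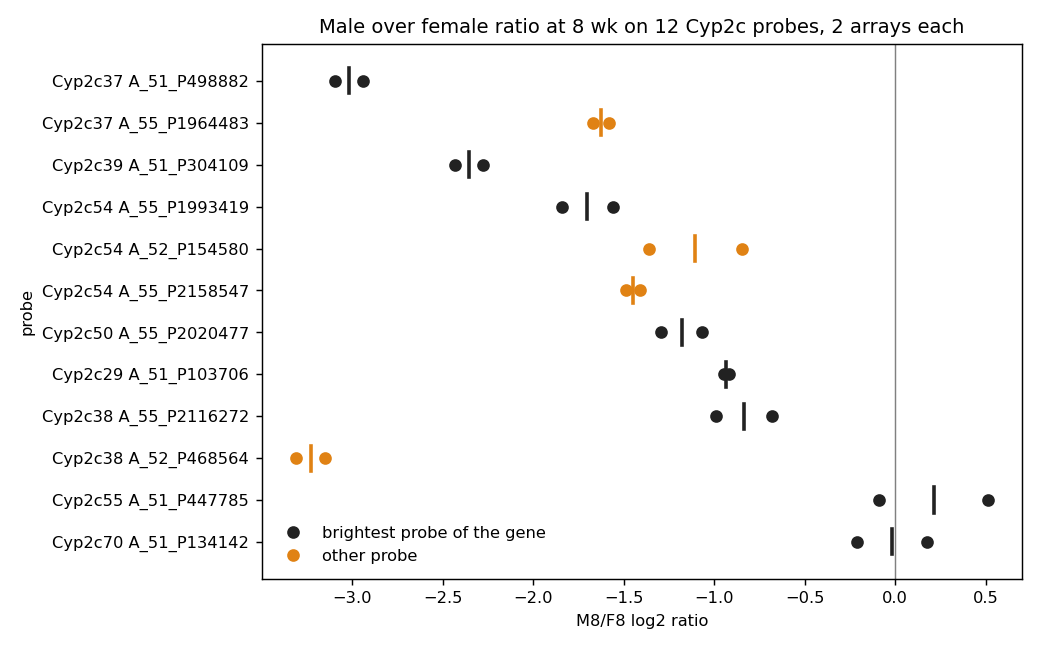
Log2 ratio of male over female liver at 8 wk (x axis) for each of the 12 Cyp2c probes (y axis), with points for the 2 arrays and a line at their mean. Both points lie below 0 for 10 probes, from -3.23 on average for Cyp2c38 probe A_52_P468564 to -0.83 for the other Cyp2c38 probe, while those of Cyp2c55 and Cyp2c70 fall on both sides of 0.

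Cyp2c55, an arachidonic acid hydroxylase best known from the intestine, had M8/F8 log2 ratios of -0.09 and 0.51. Cyp2c70, which makes the muricholic acids of mouse bile, had ratios of 0.18 and -0.21. The sign differed between the arrays for both genes, and neither was called (limma adjusted p = 0.652 and 1).

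The sex ratio was also read at each of the younger ages. At 3 wk 1 gene was called, Cyp2c37, where 0.296% of probes were called lower in males and 0.168% higher. Its M3/F3 log2 ratios were -0.40 and -0.81, a 1.52-fold difference just past the threshold (limma adjusted p = 0.0482). This call rested on the processing, since adjusting within M3/F3 alone gave an adjusted p of 0.331, and leaving out replicate 1 or replicate 2 also ended it (adjusted p = 0.143 and 0.265). The other 7 genes had M3/F3 log2 ratios between -0.50 for Cyp2c54 and 0.19 for Cyp2c55 with no call. For Cyp2c50 the 2 arrays stood far apart, at 0.05 and -0.68.

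At 4 wk 2 genes were called lower in males, Cyp2c37 and Cyp2c39, beside 0.889% of probes called lower and 0.551% called higher. The M4/F4 log2 ratios of Cyp2c37 were -1.25 and -1.17, a 2.31-fold female excess (limma adjusted p = 0.00355). Those of Cyp2c39 were -0.70 and -0.60, a 1.57-fold excess (limma adjusted p = 0.00775). Without replicate 1 the Cyp2c39 value was -0.47 and no longer called (adjusted p = 0.0784), which left 1 gene. The second Cyp2c37 probe and Cyp2c38 probe A_52_P468564 were called as well, at log2 ratios of -0.69 and -0.87.

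In the opposite direction, Cyp2c55 had M4/F4 log2 ratios of 0.55 and 1.00, higher in males on both arrays, with a mean of 0.77 (limma adjusted p = 0.0529). It was not called, though it passed in 5 of the other fits, among them those without the dye term (adjusted p = 0.0429) and with the pools in the covariance (adjusted p = 0.0267). Cyp2c29 had a ratio of -0.28 and Cyp2c70 one of -0.02, neither called.

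**Figure D2:**
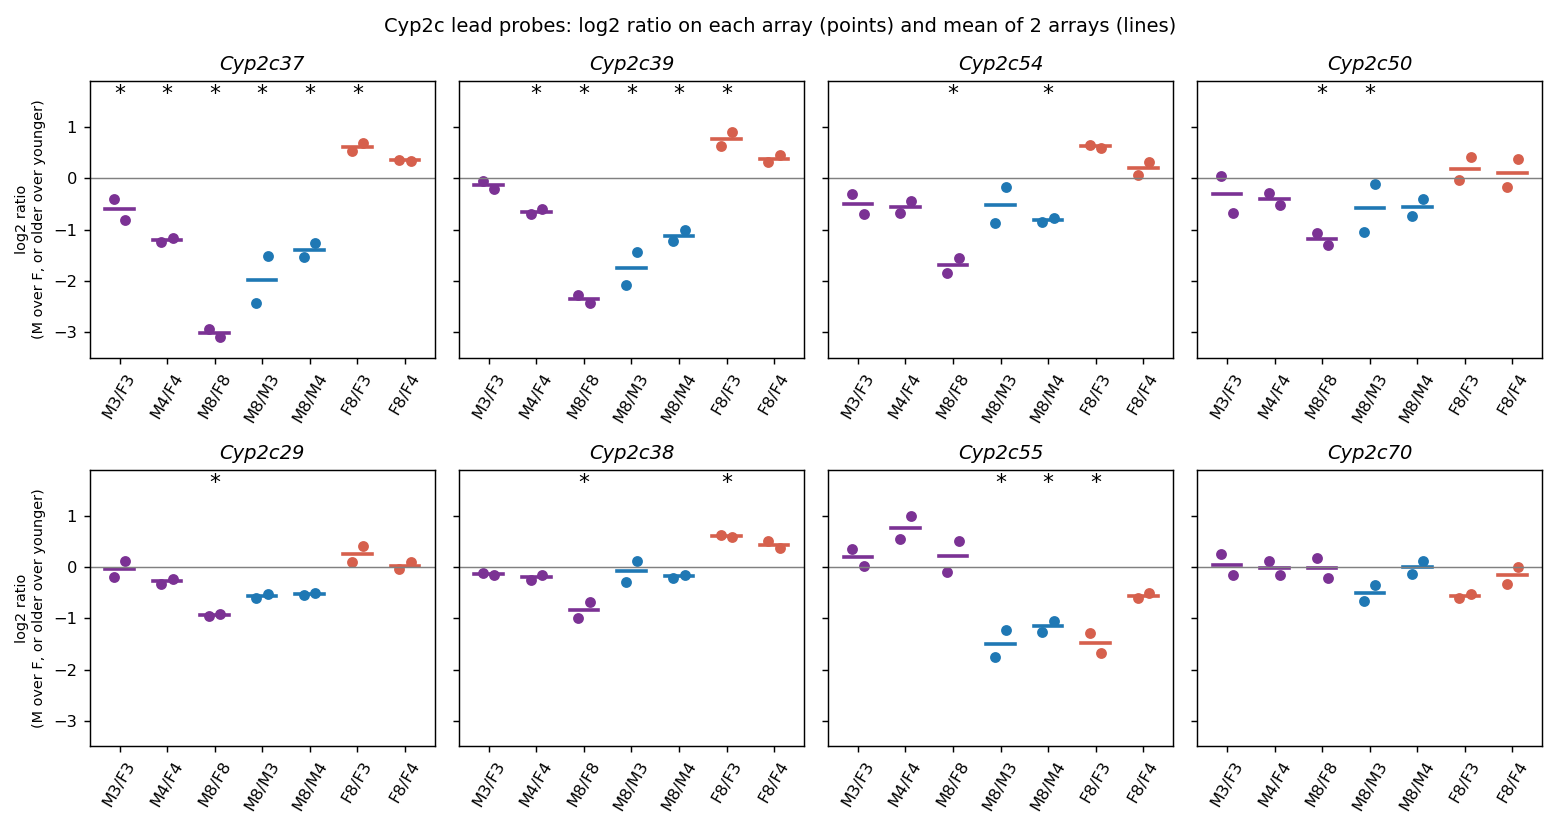
Log2 ratio (y axis) of the lead probe of each of 8 Cyp2c genes in the 7 pairings (x axis), with a point for each of 2 arrays, a line at the mean and an asterisk for a call (purple for the sexes, blue for age in males, red for age in females). For Cyp2c37 the M over F ratio goes from -0.60 at 3 wk to -1.21 at 4 wk and -3.02 at 8 wk, and the values of Cyp2c70 stay between -0.67 and 0.25.

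In male liver, 4 of the 8 genes fell from 3 to 8 wk and 0 rose, beside 8.56% of probes called lower and 8.24% called higher in M8/M3. Cyp2c37 fell 3.94-fold, with log2 ratios of -2.44 and -1.52 (limma adjusted p = 0.000583), and on its second probe 1.76-fold, with ratios of -1.04 and -0.59. Cyp2c39 fell 3.38-fold, with log2 ratios of -2.07 and -1.44 (limma adjusted p = 0.000227). For both genes the fall on replicate 1 was larger than on replicate 2.

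Cyp2c55 fell 2.82-fold in M8/M3 (log2 ratios -1.76 and -1.23, limma adjusted p = 0.00447). Cyp2c50 was just past the threshold with a mean log2 ratio of -0.59, but its arrays, at -1.05 and -0.12, lay farther apart than that. Without M8/M3 replicate 1, which gave the larger fall in all 4, the adjusted p was 0.22 for Cyp2c50 and 0.0502 for Cyp2c55, and 2 genes remained called. The Cyp2c50 call was lost as well without the dye term (adjusted p = 0.232) and with the error-weighted average. Cyp2c29 and Cyp2c70 had limma adjusted p of 0.00821 and 0.00176 but ratios under the fold threshold, with log2 values of -0.57 and -0.51.

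The lead probe of Cyp2c38 had M8/M3 log2 ratios of -0.29 and 0.13 and was not called. On probe A_52_P468564 the same gene fell 3.47-fold, with ratios of -2.04 and -1.55 (limma adjusted p = 0.000186). The 3 probes of Cyp2c54 were split as well, with log2 ratios of -0.51 for the lead probe and -0.41 for A_52_P154580, neither called, and -1.04 for A_55_P2158547, which was called. The last 2 of these share 42 bases. On the lead probe of Cyp2c54 the arrays stood apart, at -0.87 and -0.16, and without replicate 2 its value was -0.86.

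From 4 to 8 wk in males, 4 genes fell and 0 rose, beside 5.43% of probes called lower and 4.64% called higher. They were Cyp2c37 (log2 ratios -1.53 and -1.27, 2.63-fold), Cyp2c39 (-1.22 and -1.01, 2.17-fold), Cyp2c54 (-0.85 and -0.77, 1.76-fold) and Cyp2c55 (-1.27 and -1.05, 2.23-fold). The limma adjusted p-values were 0.00204, 0.001, 0.0201 and 0.012 in that order. Leaving out either array of M8/M4 ended the calls of Cyp2c54 (adjusted p = 0.114 and 0.138) and Cyp2c55 (0.115 and 0.0575), and 2 genes remained called. With one of these arrays left out the ratios were -0.84 and -0.79 for Cyp2c54 and -1.01 and -1.31 for Cyp2c55. All 3 Cyp2c54 probes were called in this pairing. The second Cyp2c37 probe fell 1.53-fold (log2 ratio -0.61, called). Cyp2c38 probe A_52_P468564 was called at -1.83 (limma adjusted p = 0.000178), beside -0.18 on the lead probe, which was not called. Between 3 and 4 wk, compared through the 8 wk pools, no gene was called in males by limma, where 0.0971% of probes were called higher and 0.131% lower, and 3 genes had an unadjusted p below 0.05.

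In female liver 3 genes rose and 1 fell from 3 to 8 wk. Cyp2c39, Cyp2c37 and Cyp2c38 rose, beside 5.31% of all probes called higher, while Cyp2c55 fell, beside 5.52% called lower. The F8/F3 log2 ratios of Cyp2c39 were 0.63 and 0.90, a 1.70-fold rise (limma adjusted p = 0.00421). Those of Cyp2c38 were 0.62 and 0.59 (1.52-fold, limma adjusted p = 0.0118), and its probe A_52_P468564 rose 2.26-fold. For Cyp2c37 they were 0.54 and 0.69 (1.53-fold, limma adjusted p = 0.0446), and its second probe had a value of 0.30 that was not called. This Cyp2c37 call was lost with the pools in the covariance (adjusted p = 0.118), with the replicate block (adjusted p = 0.0614), without the dye term (adjusted p = 0.0893) and with 6 group means (log2 ratio 0.56, under the fold threshold).

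Cyp2c55 fell 2.79-fold in females, with F8/F3 log2 ratios of -1.29 and -1.68 (limma adjusted p = 0.00463). Without replicate 2 the calls of Cyp2c37 (adjusted p = 0.168), Cyp2c38 (0.0829) and Cyp2c55 (0.0562) were lost and 1 gene, Cyp2c39, remained called. The values of these 3 genes then were 0.68, 0.62 and -1.27. Leaving out replicate 1 ended the calls of Cyp2c37 (adjusted p = 0.246) and Cyp2c38 (0.0918) and made Cyp2c70 a call at -0.69 (adjusted p = 0.00183). Cyp2c54 stood just outside the call at 0.62 (limma adjusted p = 0.0525) and was called in 7 of the other fits, among them those with the slide as a block (adjusted p = 0.0449) and with adjustment within the comparison (adjusted p = 0.0355). Cyp2c70 had a value of -0.57 that missed the fold threshold at 1.48-fold (limma adjusted p = 0.00117).

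From 4 to 8 wk in females no gene was called by limma, where 2.43% of probes were called higher and 2.98% lower, and 4 genes had an unadjusted p below 0.05. The log2 ratios ran from -0.56 for Cyp2c55 to 0.43 for Cyp2c38. The error-weighted average of the arrays also gave 0 calls. Between 3 and 4 wk in females the limma count was 0 as well, where 0.0336% of probes were called higher and 0.056% lower, with 3 genes at an unadjusted p below 0.05. The error-weighted average called 1 gene there, Cyp2c55, at -0.91.

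Whether age acted differently in the sexes was tested as the difference of M8/M3 and F8/F3 and of M8/M4 and F8/F4. From 3 to 8 wk, 4 genes were called, all with a lower ratio in males, beside 1.55% of probes called lower and 1.67% called higher. The difference was -2.59 on the log2 scale for Cyp2c37 (limma adjusted p = 0.00311), -2.52 for Cyp2c39 (0.00124), -1.14 for Cyp2c54 (0.0495) and -0.82 for Cyp2c29 (0.0215). In Cyp2c37 and Cyp2c39 the male ratio was called lower and the female ratio called higher with age. Cyp2c38 was not called on its lead probe (-0.69, limma adjusted p = 0.0599), whereas its probe A_52_P468564 gave -2.97 (0.000836). That lead probe was called in some of the other fits, among them limma with the slide as a block (adjusted p = 0.039) and after normexp and loess (adjusted p = 0.00738). The second Cyp2c37 probe gave -1.12 (called), and the other Cyp2c54 probes gave -1.40 (A_55_P2158547, called) and -0.70 (A_52_P154580, adjusted p = 0.143).

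Calls of Cyp2c54 and Cyp2c29 depended on single arrays, and that of Cyp2c54 was also lost without the dye term (adjusted p = 0.053), with the replicate block (adjusted p = 0.0539) and with the slide as a block (adjusted p = 0.0504). Without M8/M3 replicate 1 or F8/F3 replicate 2 neither was called and 2 genes remained. Without M8/M3 replicate 2 the call of Cyp2c29 was lost, and without F8/F3 replicate 1 that of Cyp2c54. From 4 to 8 wk, Cyp2c37 (-1.75, limma adjusted p = 0.0208) and Cyp2c39 (-1.50, 0.00976) were called, beside 0.543% of probes called lower and 0.798% called higher. Cyp2c38 probe A_52_P468564 differed 5.27-fold in the same direction (limma adjusted p = 0.00396), the largest of the 12 probes. The second Cyp2c37 probe gave -0.87 and Cyp2c54 probe A_55_P2158547 -0.97, both called. The Cyp2c37 call was lost with the pools in the covariance (adjusted p = 0.0671). Leaving out any of the 4 arrays of M8/M4 and F8/F4 also ended it (adjusted p = 0.0591 to 0.0907), with values between -1.91 and -1.59, and left 1 gene. For Cyp2c55 and Cyp2c70 the differences from 3 to 8 wk were -0.01 and 0.06, with SE of 0.29 and 0.08. From 4 to 8 wk they were -0.60 and 0.15, with the same SE, and neither was called.

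**Figure D3:**
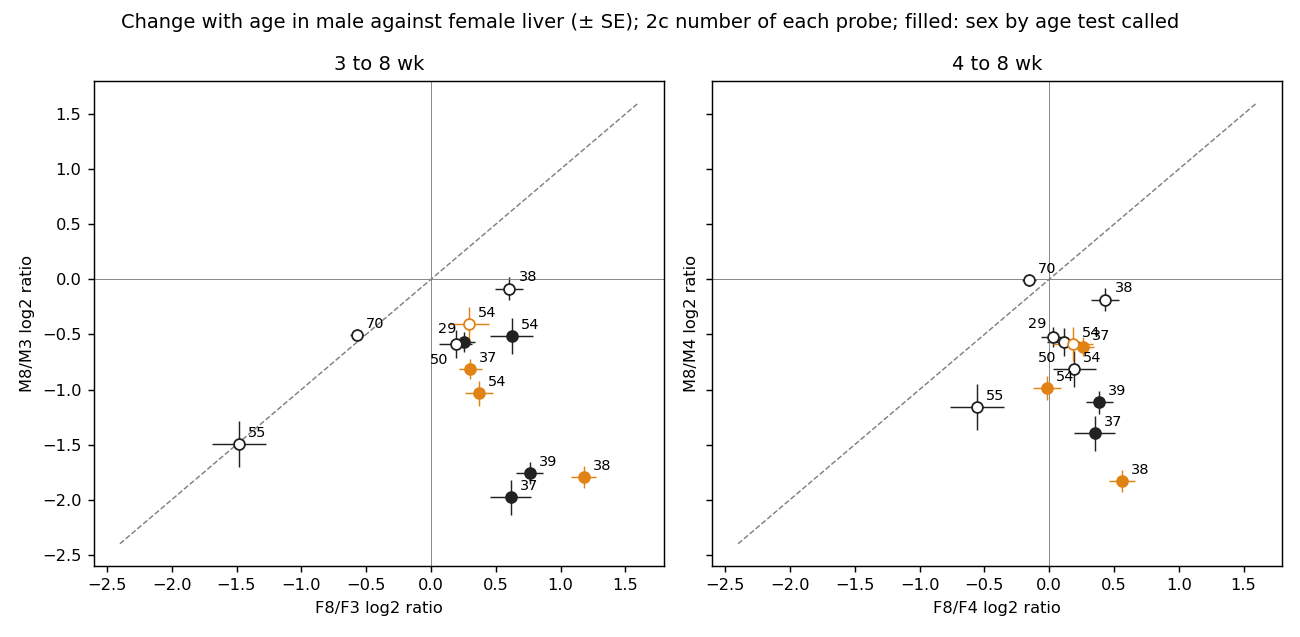
Log2 ratio with age in male liver (y axis) against that in female liver (x axis) for the 12 probes, from 3 to 8 wk on the left and from 4 to 8 wk on the right, with bars for ± SE, black for lead probes and orange for others. Numbers give the gene after Cyp2c, filled points were called in the test of the difference, and the dashed line marks equal ratios. From 3 to 8 wk, Cyp2c37 and Cyp2c39 lie at -1.98 and -1.76 in males and at 0.62 and 0.76 in females. They are far below the line, on which Cyp2c55 and Cyp2c70 lie in that panel.

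Levels in the 6 groups gave the order within each probe, as log2 intensity normalized between arrays, with 2 pools a group. For Cyp2c37 the pools of F8 stood at 15.81 and 15.84, F4 at 15.51 and 15.53, F3 at 15.36 and 15.21, M3 at 15.09 and 14.66, M4 at 14.46 and 14.63, and M8 at 12.87 and 13.23. No 2 neighbouring groups in that order overlapped. Cyp2c39 had F8 highest, at 16.31 and 16.23, followed by F4, F3, M4, M3 and then M8 at 13.88 and 14.07. In that order F3 and M4 overlapped while the others did not. The log2 ratios within arrays placed M4 below M3 instead, at -1.76 in M8/M3 and -1.12 in M8/M4. The resulting M4/M3 value of Cyp2c39 was -0.64, not called (limma adjusted p = 0.129). The order of M3 and M4 is therefore not settled for this gene.

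M8 was the lowest and F8 the highest group for all 6 genes with a sex call, and for each of them M8 overlapped with no other group. For the lead probe of Cyp2c38 the gap to M3 was minimal, with pool 2 at 15.45 in M8 and 15.46 in M3. Set against each other directly, M8 was not below M3 on replicate 2 of that probe (M8/M3 log2 ratio 0.13, not called). Among the younger groups the pools of Cyp2c29, Cyp2c38, Cyp2c50 and Cyp2c54 overlapped in part. Cyp2c55 had another order, M3 (9.88 and 9.53), F3, M4, F4, M8 and F8 (8.09 and 7.64), in which M3 overlapped F3 and F4, M8 and F8 overlapped in turn. Cyp2c70 was highest in M3 and F3, at 16.9 on average in each, and lowest in F8 at 16.5.

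**Figure D4:**
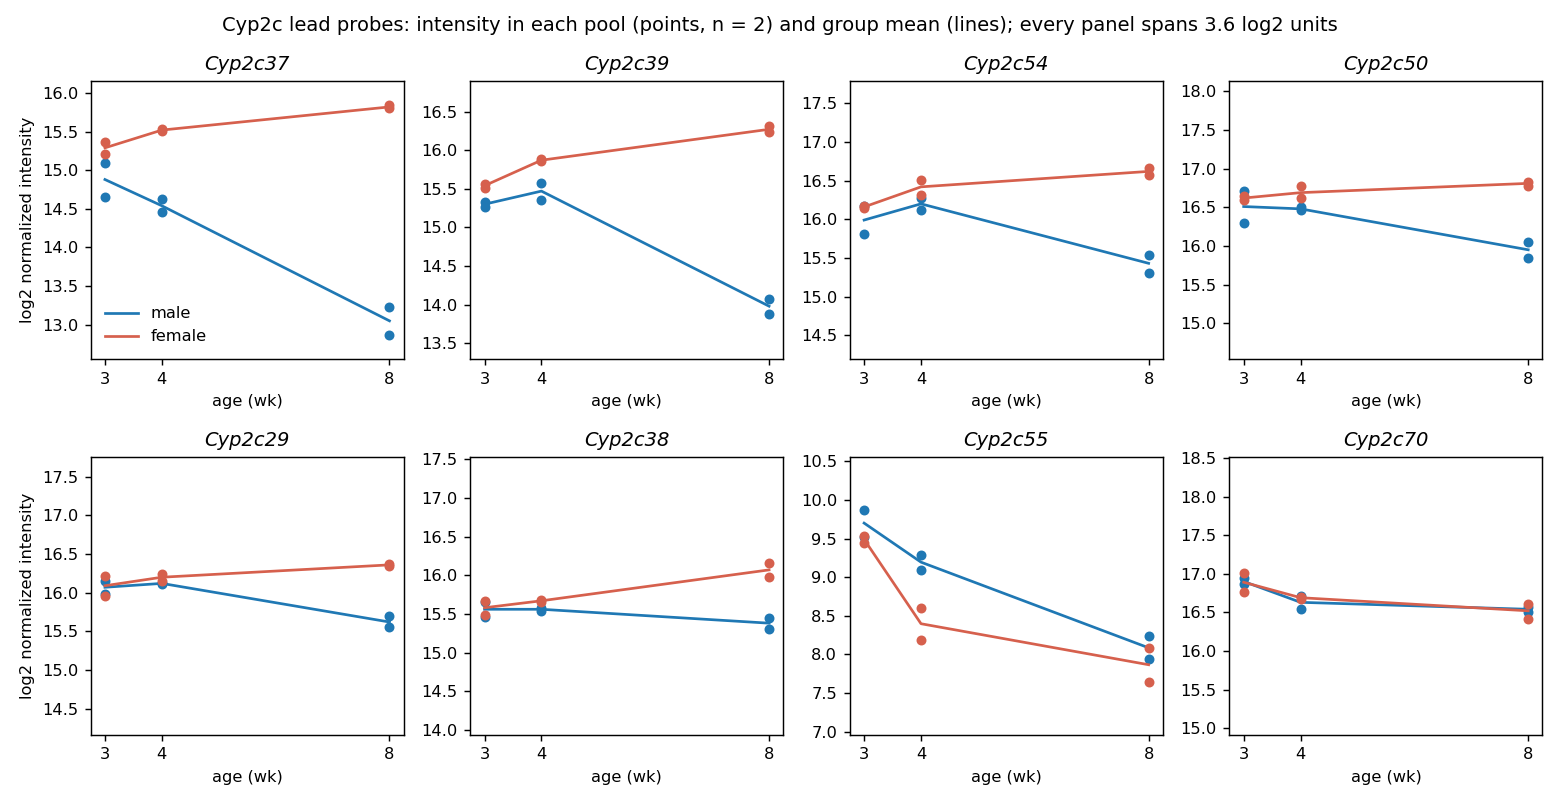
Log2 normalized intensity (y axis) of the lead probes against age (x axis) in male (blue) and female (red) liver, with a point for each of 2 pools and lines through the group means. Every panel spans the same range but starts at its own level. For Cyp2c37 the male mean goes from 14.9 at 3 wk to 13.1 at 8 wk while the female mean goes from 15.3 to 15.8, and for Cyp2c70 the lines of the sexes nearly coincide.

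Likeness among the 12 probes over the 14 arrays did not follow gene names in every case. The arrays share pools, so these values are descriptions. The lead probe of Cyp2c37 was nearer to Cyp2c38 probe A_52_P468564 (root mean square log2 difference 0.372, Pearson r 0.978) and to Cyp2c39 (0.408, r 0.988) than to the second Cyp2c37 probe (0.794). The second Cyp2c37 probe was nearest to the lead probe of Cyp2c54 (0.227, r 0.952). The 2 probes of Cyp2c38 differed by 1.32. Outside the Cyp2c genes, the 5 of 13042 genes most like the lead probe of Cyp2c37 were Cyp2b10 (0.447), Tox (0.486), Nipal1 (0.52), Fmo2 (0.552) and H2-Q1 (0.573). Most like Cyp2c55, which had the highest M8/F8 value of the 8 genes but no call, were Cd63 (0.26), Dnajb9 (0.314), Tmem39a (0.319), Adamts4 (0.323) and Nid2 (0.325).

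The promoters were searched because 6 of the genes moved together with sex. RefSeq held 10 promoters for 9 of the 10 genes, each a window around the start of the gene, on GRCm38.p6. On either strand, the letters CAAAGTC, which occur in sites of HNF4α, were found in 7 of the 10, in 6 genes, against 4.44% of all 32851 promoters. The 7 comprise both windows of Cyp2c39 and those of Cyp2c29, Cyp2c37, Cyp2c70 and the unmeasured Cyp2c40 and Cyp2c69. Cyp2c54 had no window, and 3 of the 5 genes with both a window and a sex call held the letters. The windows belong to related genes and are not independent. Compared position by position without a shift, at most 45.7% of bases were identical, which misses likeness at an offset. The Cyp2c69 window repeats most of the Cyp2c40 window at an offset, with CAAAGTC at -75 in place of -45. The STAT letters TTCNNNGAA were in 0 of 10 (8.3% of all), and the ATCGAT of HNF6 in 0 of 10 (0.925% of all). TTGCNNAA, as in C/EBP sites, was in 3 (10.8% of all), and TATAAA in 7 (13.6% of all), with 0 overlaps between these motifs. Matches are letters in a window and say nothing of binding. Below are the promoters of the gene with the largest sex ratio by lead probe, of one with a small ratio and of one with no call. CAAAGTC on either strand is in capitals.
Cyp2c37, chr19:39992174-39992473, plus strand: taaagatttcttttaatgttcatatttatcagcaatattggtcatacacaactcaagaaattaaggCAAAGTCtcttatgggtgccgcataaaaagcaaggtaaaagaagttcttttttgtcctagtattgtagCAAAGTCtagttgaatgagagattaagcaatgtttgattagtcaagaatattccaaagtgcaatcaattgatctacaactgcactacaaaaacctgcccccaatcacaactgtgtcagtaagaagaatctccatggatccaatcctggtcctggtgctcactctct
Cyp2c29, chr19:39286835-39287134, plus strand: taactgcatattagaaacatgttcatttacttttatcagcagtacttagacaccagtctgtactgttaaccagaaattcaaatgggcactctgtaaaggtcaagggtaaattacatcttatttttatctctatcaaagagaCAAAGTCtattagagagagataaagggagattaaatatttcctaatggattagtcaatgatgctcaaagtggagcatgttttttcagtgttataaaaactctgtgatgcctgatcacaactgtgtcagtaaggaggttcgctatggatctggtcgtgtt
Cyp2c70, chr19:40187237-40187536, minus strand: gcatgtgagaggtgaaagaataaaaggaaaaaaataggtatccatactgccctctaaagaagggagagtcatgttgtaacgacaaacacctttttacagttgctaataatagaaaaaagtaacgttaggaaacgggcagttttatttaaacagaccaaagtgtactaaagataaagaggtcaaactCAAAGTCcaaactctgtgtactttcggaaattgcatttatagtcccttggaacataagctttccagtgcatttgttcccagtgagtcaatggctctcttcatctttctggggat

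The letters were present in Cyp2c70, which had no sex call, and absent from the window of Cyp2c38 and Cyp2c50, which did. 

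Among 5 other Cyp2c genes with a probe, Cyp2c67 (log2 ratio -1.38, limma adjusted p = 0.00634) and Cyp2c68 (-2.07, 0.00168) were also lower in male liver at 8 wk. Only 3 of the 5 were well above background there and could be called, and the other of these, Cyp2c23, had a ratio of 0.86 (0.411). Cyp2c65 and Cyp2c66 were not well above background on both arrays of either group at 8 wk, and could not be called. Their log2 ratios there, on dim signal, were above 0 on both arrays, with means of 1.28 and 1.04. Cyp2c67 and Cyp2c68 fell in males from 3 to 8 wk, at -1.06 and -1.84, and Cyp2c68 was called in the sex by age test from 3 to 8 wk at -2.15 (limma adjusted p = 0.0166). The probes of Cyp2c67 and Cyp2c68 match at 29 of 30 bases, as given above.

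Of 5 electron donors and heme partners, 1 was called lower in males at 8 wk and 0 higher. This was Por, the P450 reductase, with log2 ratios of -1.38 and -0.50 and a mean of -0.94 (limma adjusted p = 0.0148). Pgrmc1, a heme-binding partner of P450s, rose with age in males (0.87) and in females (0.69). Of 4 epoxide hydrolases, which open the epoxides that Cyp2c enzymes make, 2 were higher in males at 8 wk and 0 lower. The microsomal Ephx1 had a log2 ratio of 0.99 (limma adjusted p = 0.0212) and the soluble Ephx2 one of 0.63 (0.000509), and Ephx2 was called in the sex by age test from 3 to 8 wk at 0.64 (0.00635).

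Of 19 regulators of Cyp2c genes, 3 were called lower in males at 8 wk and 0 higher. Cux2, a transcriptional repressor found in female liver, had M8/F8 log2 ratios of -5.21 and -4.74 (mean -4.97, limma adjusted p = 0.000118). Trim24, a nuclear receptor coregulator, had log2 ratios of -2.07 and -1.94 (9.55e-05), and Nr1i3, the xenobiotic receptor CAR, had a mean of -0.62 (0.00383). Cux2 and Trim24 were also lower in males at 4 wk, at -3.07 and -1.19, and both were called in the sex by age tests from 3 to 8 wk (-5.34 and -1.76) and from 4 to 8 wk (-2.66 and -0.79). The remaining 16 had no call at 8 wk, with ratios from -0.59 for Dbp to 0.77 for Bcl6, each with arrays far apart (-1.65 and 0.47 for Dbp). Foxa1 had a ratio of 0.63, Stat5b one of -0.02 and Hnf4a one of 0.03. With age from 3 to 8 wk, 3 regulators were called higher and 2 lower in males, and 4 higher and 0 lower in females. Those of males were Cebpb, Ghr and Dbp (higher) and Cux2 and Trim24 (lower), and those of females Nr1i3, Cux2, Trim24 and Dbp. Of all probes, 8.24% were called higher and 8.56% lower in M8/M3, and 5.31% and 5.52% in F8/F3.

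Direction and tissue were checked on the same arrays. Dyes were taken from the sample labels, since the methods text gives the dyes of the first 3 wk pools the other way round. With them, the Y-linked Ddx3y was higher in males on 6 of 6 arrays of the sexes (log2 ratio 5.80 to 7.24) and Xist lower on all 6 (-6.67 to -5.10). For the 12 probes, the sex by age difference from the age pairings and that from the sex pairings differed by at most 0.30 on the log2 scale. All 6 hepatocyte markers were well above background, and 0 of 6 were called by sex at 8 wk. Of these, 3 had an adjusted p below 0.05 in M8/F8 but missed the fold threshold, at log2 ratios of -0.57 for Alb, -0.41 for Tat and -0.52 for Cps1. In M8/M3 Alb was called lower (-0.71) and Serpina1c higher (0.91), and in F8/F3 0 were called. All 5 Kupffer cell markers were lower in M8 than in F8 on both arrays with an adjusted p below 0.05 (median log2 ratio -0.59). Marco (-1.05), Adgre1 (-0.65) and Clec4f (-0.59) passed the fold threshold, and Vsig4 (-0.55) and Cd5l (-0.54) did not. The list had a log2 summed level of 13.9 to 14.3 in M8 and 14.6 to 14.7 in F8. In M8/M3 2 were called lower, Marco (-2.20) and Adgre1 (-0.86), and in F8/F3 1, Marco (-1.58). Of 5 erythroid markers, 4 fell from 3 to 8 wk in each sex (median log2 ratios -1.63 in males and -1.68 in females) and Alas2 rose in males (1.37), and the log2 summed level was 17.1 to 17.2 in F3, 17.1 in M3, 15.9 to 16.0 in F8 and 16.1 in M8. Alas2 was also the 1 erythroid marker called in M8/F8, higher in males (1.89, limma adjusted p = 0.000725), and in the sex by age test from 3 to 8 wk (1.64, limma adjusted p = 0.0134). None of these 10 markers was below background in all channels. Among 5 markers each of endothelial, stellate and mesenchymal, bile duct, lymphocyte and gut epithelial cells, 0 were called at 8 wk between the sexes, where 4 of the lymphocyte and 2 of the gut markers were well above background and could be called. From 3 to 8 wk these lists had, in that order, 1, 2, 2, 0 and 0 markers called lower in males and 1, 2, 1, 0 and 0 in females, and 1 gut marker was called higher in females. Of all probes, 8.56% were called lower in M8/M3 and 5.52% in F8/F3, with 8.24% and 5.31% called higher. In M8/M4, 4 erythroid markers were called lower (median log2 ratio -1.44) and 1 higher, and 2 Kupffer cell markers lower. The stellate and mesenchymal list had 2 called lower, and the endothelial, bile duct, lymphocyte and hepatocyte lists 1 each, with 1 hepatocyte marker higher. In M4/F4, 1 Kupffer cell marker was called lower and 1 bile duct and 1 erythroid marker higher. The part of other cells in the Cyp2c ratios was not tested.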

How the data were processed

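Male and female CD-1 liver RNA pools were competed on Agilent 4x44k mouse arrays. The authors processed the scans with Agilent Feature Extraction 10.7.1.1, and the deposited files hold intensity values (background-subtracted, then linear and LOWESS dye-normalized within the array) and the log10 ratio of red over green with its log10 error. Gene names came from RefSeq accessions through the GRCm38.p6 gene table, since the array annotation is older. Columns of flags, deposited as other values, gave the well above background condition. On each array 55.2% to 77.2% of the 43020 spots per channel were well above background, 0 were saturated, and at most 10 non-uniform spots were left out.

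Ratios were converted to log2, turned to male over female or older over younger by the labels, and averaged over the spots of a probe. In R 4.3.3, limma 3.58.1 was fitted to 14 arrays with 1 coefficient per pairing and a dye term, with Benjamini-Hochberg adjustment over all probes and the 7 pairings together, or over all probes within each contrast. A call also required 1 of the compared groups to be well above background on both arrays. Levels were Aquantile-normalized between arrays and averaged per pool. The script was tested on simulated data. Replicates were separate pools of mice, 2 per group, and their number limits the precision.

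The numbers of the replicates name pools that were used again in other pairings, as the study's design text describes. Deviations of same-numbered arrays around the loops of pairings correlated at 0.913 (3 wk) and 0.904 (4 wk) over 20449 probes. Arrays lay on 4 slides scanned on 2 days, with replicate 1 and replicate 2 of a pairing on separate slides and each pairing scanned on 1 day.

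All 10 genes are named. Of the other lists, called genes of M8/F8 and of both sex by age tests are named, and for the Cyp2c genes with the highest and the lowest M8/F8 value, called or not, the 5 most alike genes. Uncalled list genes named beside them were chosen after their values were seen. Genes and lists were chosen with earlier results of these data known. Alternatives were 15 other settings and leaving out each of 14 arrays. Rosetta Resolver was not used, and its averaging was approximated from the deposited errors. Probe sequences came from the study's supplementary table and promoters from RefSeq.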

Additional observations from a re-analysis of the deposited data

Results flagged for a closer look

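For 6 results the change with age differed between male and female liver by the test of the difference itself in limma. From 3 to 8 wk the male minus female difference in log2 ratio was -2.594 for Cyp2c37, -2.519 for Cyp2c39, -1.137 for Cyp2c54 and -0.8197 for Cyp2c29. From 4 to 8 wk it was -1.748 for Cyp2c37 and -1.503 for Cyp2c39. With the pools in the covariance the Cyp2c37 difference from 4 to 8 wk no longer passed (adjusted p = 0.0671), and with the replicate block the Cyp2c54 difference from 3 to 8 wk did not (adjusted p = 0.0539).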

How the results depend on the processing

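Counts of called genes stayed within 1.5 times the reported count in 155 of 191 recalculations. With M8/F8, the count was 6 without replicate 1 and 6 without replicate 2. For M3/F3 the reported 1 became 0 without the dye term, with the replicate block, with 6 group means, with the pools in the covariance, with adjustment within each comparison, at a 2-fold threshold, at an unadjusted p below 0.0001 and with the mean of all probes. For M4/F4 the reported 2 became 4 with 6 group means, 1 at the 2-fold threshold and 0 at p below 0.0001. At p below 0.0001 the counts were 2 for M8/M3, 2 for M8/M4, 0 for F8/F3, 2 for the sex by age test from 3 to 8 wk and 1 from 4 to 8 wk, and the 2-fold threshold left 1 for F8/F3. With no threshold on the ratio, F8/F4 had 1. The test from 4 to 8 wk had 6 with 6 group means, 1 with the pools in the covariance and 4 with normexp and loess, beside 2 reported. F4/F3 had 1 with 6 group means and 1 with the error-weighted average.

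Leaving out an array gave 0 to 0 for M3/F3, 1 to 2 for M4/F4, 2 to 5 for M8/M3, 2 to 2 for M8/M4 and 1 to 3 for F8/F3. For the sex by age tests it gave 2 to 4 from 3 to 8 wk and 1 to 1 from 4 to 8 wk. Cyp2c38 reversed in M8/M3 without replicate 1, to 0.16 (lead probe, called in neither), and was -0.33 without replicate 2. The cause of these changes was not tested. The replicate block ended the calls of Cyp2c37 in M3/F3 (adjusted p = 0.0655) and in F8/F3 (0.0614) and of Cyp2c54 from 3 to 8 wk (0.0539), and no other. With 2 arrays a pairing, all single-array calls assume the spread of the others.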
